A study of Homo sapiens with 3 samples.

Results

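The genes described here encode the Sm and LSm proteins and the other proteins named after the small nuclear ribonucleoproteins (snRNPs), the particles from which the spliceosome is built. They were chosen by name, as every protein-coding gene whose symbol starts with SNRP, SNRNP or LSM followed by a letter or a digit, which gave 34 of the 58735 genes in the deposited count tables. The rule itself uses symbols and no measured value. A mean of at least 1 CPM (counts relative to the library total, scaled between libraries by edgeR's TMM method) was reached by 32 of the 34, and by 13984 genes in all. The 2 members below it, LSMEM1 and LSMEM2, encode membrane proteins that are not LSm proteins and were taken by their symbols alone. LSMEM1 had 13 counts in the control and 16 and 10 in the knockdown libraries, LSMEM2 had 0, 2 and 1, and neither is described further.

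The libraries came from A549, an established line of human lung adenocarcinoma cells. There were 3 of them, 1 for a control line (named Control-sh) and 1 for each of 2 lines with an shRNA to DDX24 (named DDX24-sh1 and DDX24-sh2, shortened to sh1 and sh2). The study asked what the loss of DDX24, a DEAD-box RNA helicase, does to lung cancer cells and to their splicing. All 3 lines were made with pLKO.1 lentivirus and held under puromycin, so the vector and the drug were common to the groups. The methods give the empty vector as the control and a figure legend gives a control shRNA, and the labels do not say which of them the control library holds. DDX24 itself was counted 2010 times in the control library, 637 times in sh1 and 765 times in sh2, which is 29.6% and 36.0% of the control after scaling. Totals ran from 17218884 to 18337471 counts per library. The 8 markers listed for A549, among them KRT8 and ALDH1A1, had 22548 to 106051 counts each, CDKN2A, which this line has lost, had 0, and the 7 markers of leukocytes, endothelium and muscle had at most 16.

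With 1 library per condition there was no test between conditions. Each shRNA library is given as a log2 ratio of scaled CPM to the control (prior count 2), with an exact 95% interval that covers counting error only and not the spread between cultures. Both ratios rest on 1 control culture, so what DDX24 depletion did and what was particular to that culture cannot be told apart. As in any bulk RNA, fewer expressing cells and less RNA per cell cannot be told apart either. Where values are given in threes, their order is the control, sh1 and sh2. Names of the shRNA libraries follow the count tables. The deposited FPKM, which divide the same counts by gene length and library size, carry the names the other way round: FPKM times gene length over counts was within 1% of a constant in 100% of genes with at least 50 counts when the names were exchanged, and in 5.17% and 5.23% with the names as given. Which kind of file has the right names was not settled. Statements about both shRNA libraries together do not depend on it.

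A snRNP consists of a small nuclear RNA (snRNA) and its proteins. The Sm proteins close into a ring around a uridine-rich stretch of the U1, U2, U4 and U5 snRNAs and their minor counterparts, a step carried out in the cytoplasm by the SMN complex, and further proteins give each particle its identity. The LSm proteins build rings of the same fold: LSM2 to LSM8 bind the end of U6 snRNA in the nucleus, while LSM1 to LSM7 bind shortened poly(A) tails and take part in decapping and decay of mRNA in the cytoplasm. LSM10 and LSM11 replace a pair of Sm proteins in the U7 particle, which processes the ends of histone mRNAs. Cells need the Sm ring and the ring of LSM2 to LSM8 for splicing in every tissue. In dividing tumour lines the genes of these rings are broadly expressed.

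All but 3 of the 32 members lay within 1.5-fold of the control in both shRNA libraries, and 1 stood apart. SNRPG, a protein of the Sm ring, was 1.43 higher on the log2 scale in sh1 and 1.42 higher in sh2 by the reads on the gene itself. With the reads on its processed pseudogenes added, it was 0.69 and 0.77 higher and no longer past 2-fold. SNRNP35 of the minor spliceosome was 0.72 and 0.64 higher, and SNRPA of the U1 particle was lower, at -0.76 and -0.79. The median log2 ratio of the 32 members was -0.12 in sh1 and -0.02 in sh2, beside -0.02 and -0.03 over all 13984 genes.

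SNRPG lies on the minus strand at chr2:70281362-70293771 (GRCh38), and no other annotated gene overlaps it. The annotation holds 20 processed pseudogenes of SNRPG, copies of its mRNA inserted elsewhere, to which reads from SNRPG may be assigned. Only 3 of them reached 10 counts in a library. Their sequences are shown against the coding sequence of SNRPG, because the reading of the SNRPG ratio turns on how alike they are. SNRPGP10 lies at chr1:205351247-205351471 on the plus strand, in an intron of KLHDC8A. SNRPGP15 lies at chr19:14489388-14489609 on the plus strand, in an intron of GIPC1, and SNRPGP2 at chr18:54406889-54407114 on the minus strand. All are read from the GENCODE 29 transcripts of GRCh38, 5′ to 3′, and capitals mark the bases that differ from SNRPG.
SNRPG coding sequence: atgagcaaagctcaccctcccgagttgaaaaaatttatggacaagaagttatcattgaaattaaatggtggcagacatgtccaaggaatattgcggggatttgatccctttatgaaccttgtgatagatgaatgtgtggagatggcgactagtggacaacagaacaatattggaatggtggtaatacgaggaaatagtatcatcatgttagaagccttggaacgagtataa
SNRPGP10: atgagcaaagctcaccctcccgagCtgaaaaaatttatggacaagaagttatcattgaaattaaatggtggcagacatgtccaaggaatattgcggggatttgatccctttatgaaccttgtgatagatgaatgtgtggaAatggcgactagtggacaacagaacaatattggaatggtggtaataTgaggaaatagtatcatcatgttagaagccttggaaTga
SNRPGP15: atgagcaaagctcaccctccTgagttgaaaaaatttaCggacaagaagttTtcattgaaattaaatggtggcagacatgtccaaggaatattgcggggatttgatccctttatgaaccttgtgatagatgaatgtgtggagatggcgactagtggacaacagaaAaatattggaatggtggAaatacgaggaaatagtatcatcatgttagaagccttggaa
SNRPGP2: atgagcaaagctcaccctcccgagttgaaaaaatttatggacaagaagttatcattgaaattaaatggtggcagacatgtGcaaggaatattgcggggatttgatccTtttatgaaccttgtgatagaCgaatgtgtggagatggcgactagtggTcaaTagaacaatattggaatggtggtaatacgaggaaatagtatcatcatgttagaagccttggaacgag

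Counted from base 1 of the SNRPG coding sequence, SNRPGP10 carries T25C, G141A, C187T and C223T, SNRPGP15 carries C21T, T38C, A51T, C165A and T182A, and SNRPGP2 carries C81G, C108T, T129C, A156T and C160T. Each line starts at the first coding base, and SNRPGP10, SNRPGP15 and SNRPGP2 stop short of the 231 bases of SNRPG after 225, 222 and 226. These 3 copies were 97.7% to 98.2% identical to SNRPG, with identical runs of up to 80 to 115 bases. The 17 others were 79.1% to 95.4% identical, with runs of 17 to 54 bases at most, and had fewer than 10 counts in every library. Of the 526 stretches of 100 bases along the principal SNRPG transcript, 30 (5.70%) occurred unchanged in SNRPGP10 or SNRPGP15, and of 576 stretches of 50 bases, 132 (22.9%) occurred in other genes. How reads that match more than 1 place were treated, and how long the reads were, is not given in the sources used here.

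SNRPG had 431 counts in Control-sh, 1251 in sh1 and 1224 in sh2. Both shRNA libraries were far above the control and near each other, at 25.3 CPM in the control against 68.4 and 67.8 CPM. The log2 ratios had counting intervals of 1.28 to 1.60 in sh1 and 1.27 to 1.59 in sh2, and sh2 differed from sh1 by -0.01 (-0.13 to 0.10).

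The pseudogenes went the other way. SNRPGP10 had 199, 37 and 49 counts in Control-sh, sh1 and sh2. SNRPGP15 had 111, 52 and 109, and SNRPGP2 had 33, 3 and 17. SNRPGP10 was thus lower in both shRNA libraries, at -2.46 (-3.07 to -2.02) and -2.06 (-2.58 to -1.65), whereas SNRPGP15 was lower in sh1 alone, at -1.16 (-1.70 to -0.71) against -0.11 (-0.50 to 0.29). The host gene of SNRPGP10 on the other strand, KLHDC8A, had 20, 38 and 15 counts. That of SNRPGP15, GIPC1, had 2938, 3847 and 2994. In sh1 KLHDC8A was at 0.77 (0.01 to 1.69) and GIPC1 at 0.29 (0.22 to 0.36). In sh2 they were at -0.44 (-1.57 to 0.54) and -0.05 (-0.13 to 0.02). Whether transcription of the host genes bears on the counts of the copies was not tested. Summed over all 20 pseudogenes the counts were 349, 95 and 180. The share of the reads on SNRPG and its pseudogenes together that fell on SNRPG itself was 55.3% in Control-sh (exact 95% binomial interval 51.7 to 58.8), 92.9% in sh1 (91.4 to 94.3) and 87.2% in sh2 (85.3 to 88.9).

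With the pseudogenes added, SNRPG had 780, 1346 and 1404 counts and remained above the control. The log2 ratios of the sums were 0.69 (0.56 to 0.82) in sh1 and 0.77 (0.64 to 0.90) in sh2. They were about the size of those of SNRNP35 and no longer past 2-fold. Summing FPKM in place of counts, with the names exchanged, turned the direction, to -0.76 and -0.34, since FPKM divides by gene length and the pseudogenes are short, so that each of their reads weighs more. The part of the pseudogene reads that came from SNRPG mRNA was not tested.

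**Figure D1:**
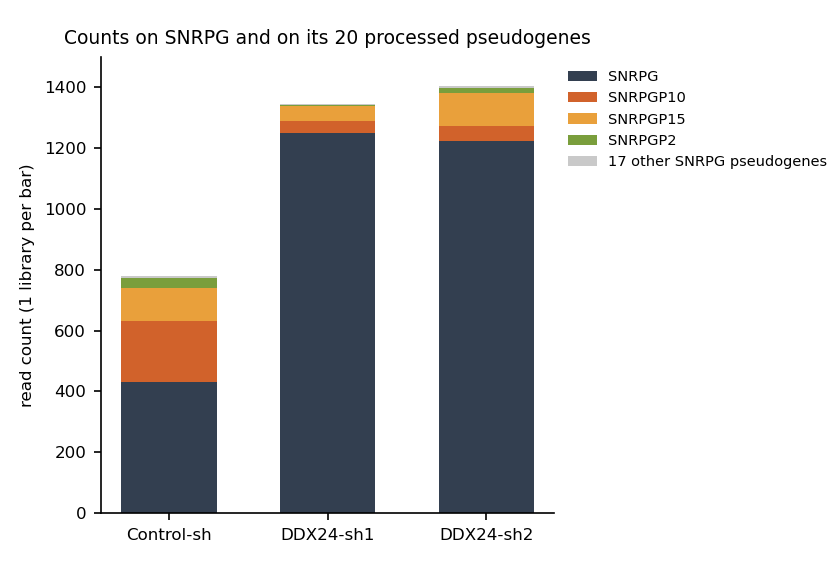
Read counts (y axis) in the 3 libraries (x axis, 1 library per bar), stacked as counts on SNRPG, on SNRPGP10, SNRPGP15 and SNRPGP2 and on the 17 other SNRPG pseudogenes. The whole bar is 780 in Control-sh, 1346 in sh1 and 1404 in sh2, and SNRPG itself takes 431, 1251 and 1224 of it.

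The same share was taken for other genes that have such copies. Among 168 protein-coding genes with processed pseudogenes named after them (at least 100 counts on gene and copies in every library and 50 on the copies over the libraries, a set chosen after the SNRPG values were seen), the median share on the gene was 97.1% in Control-sh, 97.2% in sh1 and 96.9% in sh2. The share was at least 10 percentage points higher in both shRNA libraries for 2 of the 168, SNRPG and EIF4A1, and at least 10 lower in both for 0. A gene at or above the Control-sh median of 97.1% had no room to gain 10 points. For much of the set such a rise could therefore not occur, and 2 of the 168 does not measure how rare it is. SNRPG gained at least 31.9 points in each shRNA library, and EIF4A1, a translation initiation helicase, gained at least 14.2. Of the other members in this set, SNRPE had a share of 91.8%, 85.4% and 90.7%, and LSM12 of 59.6%, 54.8% and 59.3%.

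**Figure D2:**
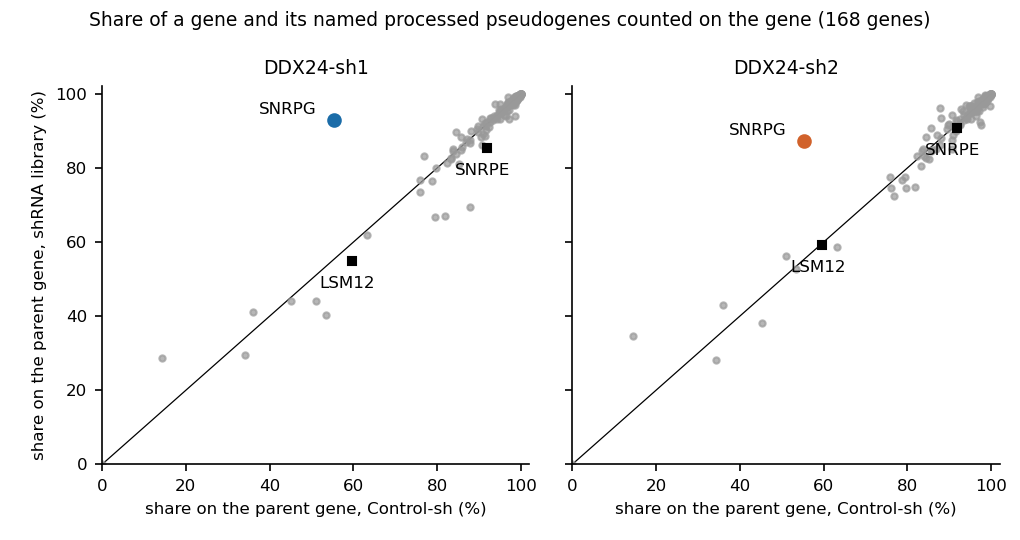
Share (%) of the counts on a gene and on the processed pseudogenes named after it that fell on the gene, in Control-sh (x axis) against sh1 (left) and sh2 (right, y axes), 1 point per gene for 168 genes, with the diagonal of equal shares. SNRPG lies far above the diagonal in both panels (55.3% in Control-sh, 92.9% and 87.2% in the shRNA libraries), while SNRPE and LSM12 lie near it.

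SNRPE and LSM12 are the other members with pseudogenes of at least 10 counts. SNRPEP4 matches the SNRPE coding sequence over 279 bases with 4 substitutions and had 67, 110 and 77 counts, and LSM12P1 is 100% identical to the 588 coding bases of LSM12 and had 300, 308 and 299. Over all members the annotation names 62 pseudogenes, of which 14 had a count and 5 reached 10 in a library. For every member with counted pseudogenes, adding them left the ratio on the same side of 0 in each library.

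Of the 32 members, 11 were above the control in both shRNA libraries, where 34.6% of all genes were, and 14 were below it in both, where 40.2% were. These shares of the members, 34.4% and 43.8%, are near those of the background. Counting intervals lay above 0 in both libraries for 4 members (background 14.0%), SNRPD2, SNRPG, SNRNP35 and LSM3. They lay below 0 in both for 7 (background 20.6%), SNRPB, SNRPA, SNRNP200, LSM2, LSM4, LSM14A and LSM14B. At 1.5-fold in both libraries, SNRPG and SNRNP35 were higher (background 4.23%) and SNRPA was lower (background 4.72%). At 2-fold in both, only SNRPG was higher (background 1.19%), and 0 members were lower (background 1.38%). With its pseudogenes added to SNRPG, 0 members were 2-fold higher in both. Summed over members, 0.257% of the counts fell on them in Control-sh, 0.233% in sh1 and 0.241% in sh2.

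**Figure D3:**
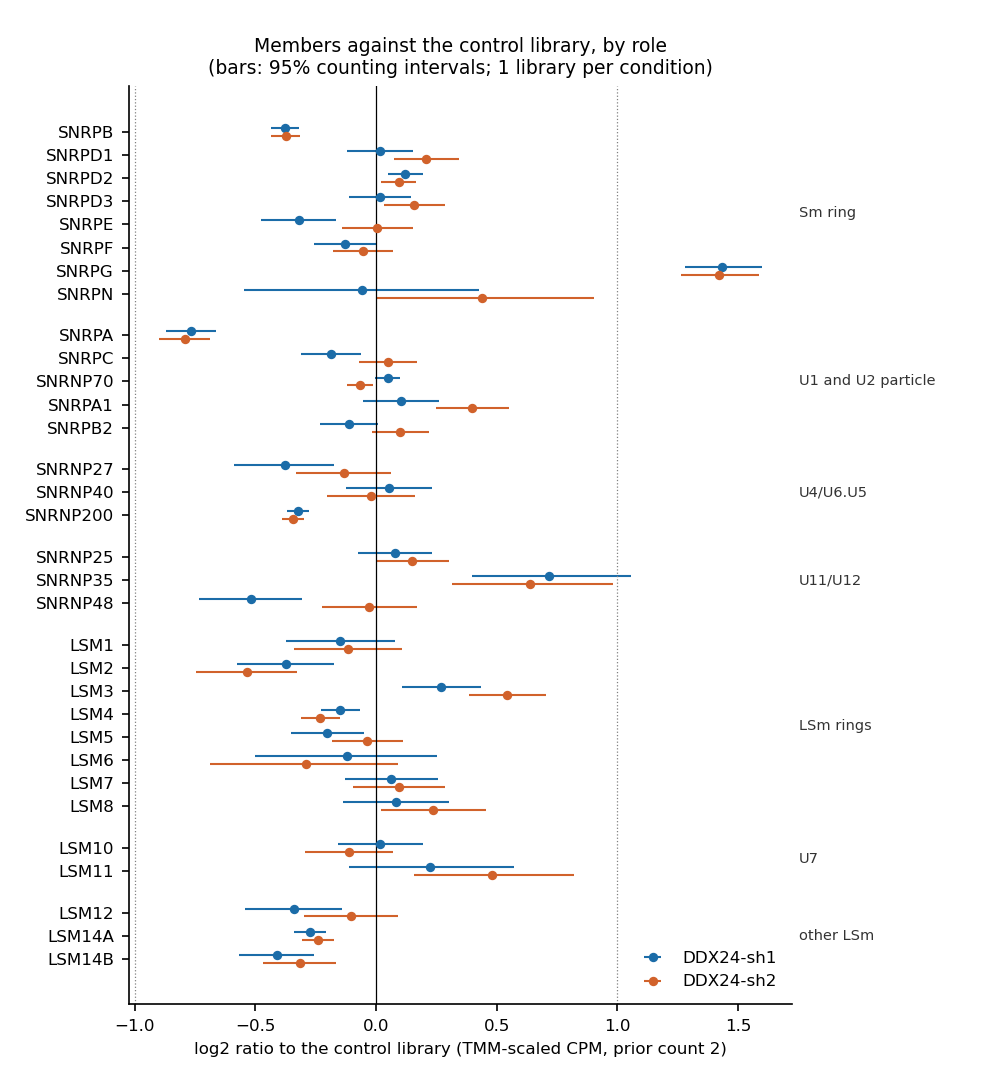
Log2 ratio to the control library (x axis) of the 32 members at or above 1 CPM on average (y axis, grouped by role), with 1 point for sh1 and 1 for sh2 and bars for the exact 95% counting intervals, and dotted lines at 2-fold. SNRPG (1.43 and 1.42) is the only member past the upper line in both libraries, and SNRPA (-0.76 and -0.79) is the lowest.

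The rest of the Sm ring did not follow SNRPG. Without SNRPG the median of its core proteins was -0.06 in sh1 and 0.05 in sh2. SNRPB, which encodes the B and B' proteins, had 5205 counts in Control-sh against 4291 and 4245, so both shRNA libraries were lower, at -0.38 (-0.44 to -0.32) and -0.37 (-0.43 to -0.32). SNRPB shares 256 exonic bases with AL049650.1 on the same strand, which had 0, 0 and 1 counts. SNRPD2 had 2890, 3368 and 3262 counts, a difference of 0.12 and 0.09. It shares 54 exonic bases with QPCTL on the other strand, which had 406, 652 and 490 counts. The part of QPCTL in the SNRPD2 counts was not tested. SNRPD1 had 835, 906 and 1021 counts and SNRPF had 1023, 1003 and 1042. SNRPD3 had 938, 1017 and 1107, and shares 306 exonic bases with GGT1 and 321 with GUCD1. The log2 ratios of these 3 genes ran from -0.13 to 0.21, close to the control. Counting intervals lay above 0 in sh2 for SNRPD1, at 0.21 (0.08 to 0.34), and SNRPD3, at 0.16 (0.03 to 0.29). For SNRPF the interval in sh1 lay just below 0, at -0.13 (-0.255 to -0.001). SNRPE had 748 counts in the control, 642 in sh1 and 794 in sh2. It was below the control in sh1, at -0.32 (-0.47 to -0.17), and at 0.01 in sh2. SNRPN, the SmN protein made mainly in brain in place of SmB, had only 72, 74 and 104 counts. Its gene shares 814 exonic bases with SNURF and 141 with the long transcript SNHG14, and reads in these stretches cannot be assigned to 1 of them.

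Of the U1 and U2 proteins, SNRPA was the one that stood below the control in both libraries. SNRPA encodes the A protein of the U1 particle, which binds a stem-loop of U1 snRNA and also limits the polyadenylation of its own mRNA. The gene lies at chr19:40750637-40765389 on the plus strand. It had 1945 counts in Control-sh, 1226 in sh1 and 1186 in sh2, so the shRNA libraries lay near each other. The intervals of its ratios were -0.87 to -0.66 and -0.90 to -0.69. C19orf54, on the opposite strand, shares 89 exonic bases with it and had 677, 591 and 551 counts. Strandedness of the counts is not given in the sources used here, and the part of C19orf54 in the SNRPA counts was not tested.

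The other U1 and U2 proteins differed less. SNRNP70, the U1-70K protein whose tail contacts other splicing factors, had 5413, 5996 and 5468 counts, with log2 ratios of 0.05 and -0.07. SNRPC, which steadies the pairing of U1 with the splice site, had 1066, 1004 and 1166. It was below the control in sh1, at -0.19 (-0.31 to -0.06), and at 0.05 (-0.07 to 0.17) in sh2. U2 is served by SNRPA1 and SNRPB2, a pair of proteins that bind one of its stem-loops together. SNRPA1 had 622, 716 and 868 counts and was above the control in sh2, at 0.40 (0.25 to 0.55), against 0.10 (-0.05 to 0.26) in sh1. Of its stretches of 100 bases 22.2% recur in other annotated genes, so its counts are the less certain. SNRPB2 had 1104, 1095 and 1251.

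SNRNP200 encodes Brr2, the helicase that unwinds U4 from U6 when the spliceosome is activated. It had 8577 counts in the control, 7353 in sh1 and 7145 in sh2, lower by 0.32 and 0.34 on the log2 scale. The intervals reached only -0.28 and -0.30 on the side of 0. SNRNP40, another protein of the U5 particle, had 492, 547 and 513 counts and both intervals spanned 0. SNRNP27, of the tri-snRNP, had 431, 355 and 415, and only sh1 was below the control beyond counting error, at -0.38 (-0.59 to -0.17). It shares 237 exonic bases with MXD1 on the same strand, which had 129, 174 and 220 counts. The part of MXD1 in the SNRNP27 counts was not tested.

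The U11/U12 particle, which recognizes the rare introns of the minor spliceosome, has 3 of its proteins among the members, and they differed from one another. SNRNP35, related to U1-70K, lies at chr12:123457641-123473154 on the plus strand and had 122, 216 and 202 counts. Both shRNA libraries were higher, with intervals of 0.40 to 1.06 and 0.32 to 0.98, which are wide because the gene is weakly counted. It shares 2063 exonic bases with RILPL1 on the other strand, which had 175, 217 and 238 counts and log2 ratios of 0.21 and 0.36. The part of RILPL1 in the SNRNP35 counts was not tested. SNRNP25 had 657, 743 and 771 counts with intervals that reached 0. SNRNP48 had 423 counts in the control, 316 in sh1 and 439 in sh2, so it was below the control in sh1, at -0.52 (-0.74 to -0.31), and level with it in sh2, at -0.03 (-0.22 to 0.17).

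The members of the LSm rings went in both directions. LSM3, which sits in both the nuclear and the cytoplasmic ring, had 539 counts in Control-sh, 697 in sh1 and 831 in sh2, at 0.27 (0.11 to 0.44) and 0.54 (0.39 to 0.70). It shares 318 exonic bases with XPC on the other strand, which had 603, 580 and 754 counts. LSM2, its companion in both rings, had 455, 376 and 332, at -0.37 (-0.58 to -0.17) and -0.53 (-0.74 to -0.33). LSM4 had 2562, 2478 and 2309, at -0.15 and -0.23. The genes that set the identity of each ring did not stand apart in sh1: LSM1 of the cytoplasmic ring had 332, 321 and 324 counts, and LSM8 of the nuclear ring had 320, 363 and 399, with LSM8 at 0.24 (0.02 to 0.45) in sh2. LSM5 had 745, 694 and 768 counts, LSM6 122, 120 and 105, and LSM7 423, 474 and 478. Of these, LSM5 was below the control in sh1, at -0.20 (-0.35 to -0.05), and at -0.04 (-0.18 to 0.11) in sh2. Over the 8 genes the median was -0.13 in sh1 and -0.08 in sh2.

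LSM10 of the U7 particle had 509, 552 and 498 counts and intervals that spanned 0 in both libraries. LSM11, which carries the extension that recruits the cleavage factors for histone mRNA, had 129, 162 and 191 counts. It was above the control beyond counting error in sh2, at 0.48 (0.16 to 0.82), and at 0.23 (-0.11 to 0.57) in sh1.

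The 3 remaining LSm genes, which build no ring of the usual kind, were all below the control. LSM14A, a P-body protein that binds the translation repressors of the decapping machinery, had 3846 counts in Control-sh against 3411 and 3447, lower by 0.27 and 0.24. Its paralog LSM14B had 777, 626 and 660 counts, lower by 0.41 and 0.32. For LSM12 the counts were 442, 374 and 435, and its interval reached past 0 in sh2, at -0.10 (-0.30 to 0.09).

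The shRNA libraries also differed from each other at some members. sh2 was above sh1 beyond counting error for 12 of the 32, where 21.0% of all genes were, and below it for 2, SNRNP70 and LSM4, where 23.8% were. The 12 were SNRPD1, SNRPD3, SNRPE, SNRPN, SNRPC, SNRPA1, SNRPB2, SNRNP27, SNRNP48, LSM3, LSM5 and LSM12. The differences were largest for SNRPN, at 0.50 (0.07 to 0.96), and SNRNP48, at 0.49 (0.28 to 0.71). Over the 32 the median difference was 0.07, beside -0.01 over all genes. SNRPG, SNRPA, SNRNP35, SNRPB and SNRNP200 had intervals of this difference that contained 0.

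Levels were compared between members as scaled CPM per kilobase of the principal annotated transcript. By this measure SNRPB, SNRNP70 and SNRPD2 were the highest in every library, at 264.3, 201.5 and 187.9 in Control-sh. The lowest of the 32 members at or above 1 CPM on average were LSM11, at 1.15, SNRPN, at 2.17, and LSM6, at 3.16. SNRPG stood at 40.4 in Control-sh, next in the order to SNRPF at 43.2 and SNRPE at 46.5, which also belong to the Sm ring. It stood at 109 in sh1 and 108 in sh2, where SNRPF was at 39.5 and 41.6. Its place in the order went from 12 of 34 in the control to 4 in each shRNA library, while SNRPA went from 6 to 10 in sh1 and 13 in sh2. These levels of SNRPG count reads on the gene alone, which held 55.3% of the reads on SNRPG and its pseudogenes in Control-sh against 92.9% and 87.2% in the shRNA libraries, and the log2 ratios of the summed counts were 0.69 and 0.77. Such levels also depend on the transcript chosen. SNRPD1, with a principal transcript of 4909 bases for a coding sequence of 360, stood at only 9.97 in the control.

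**Figure D4:**
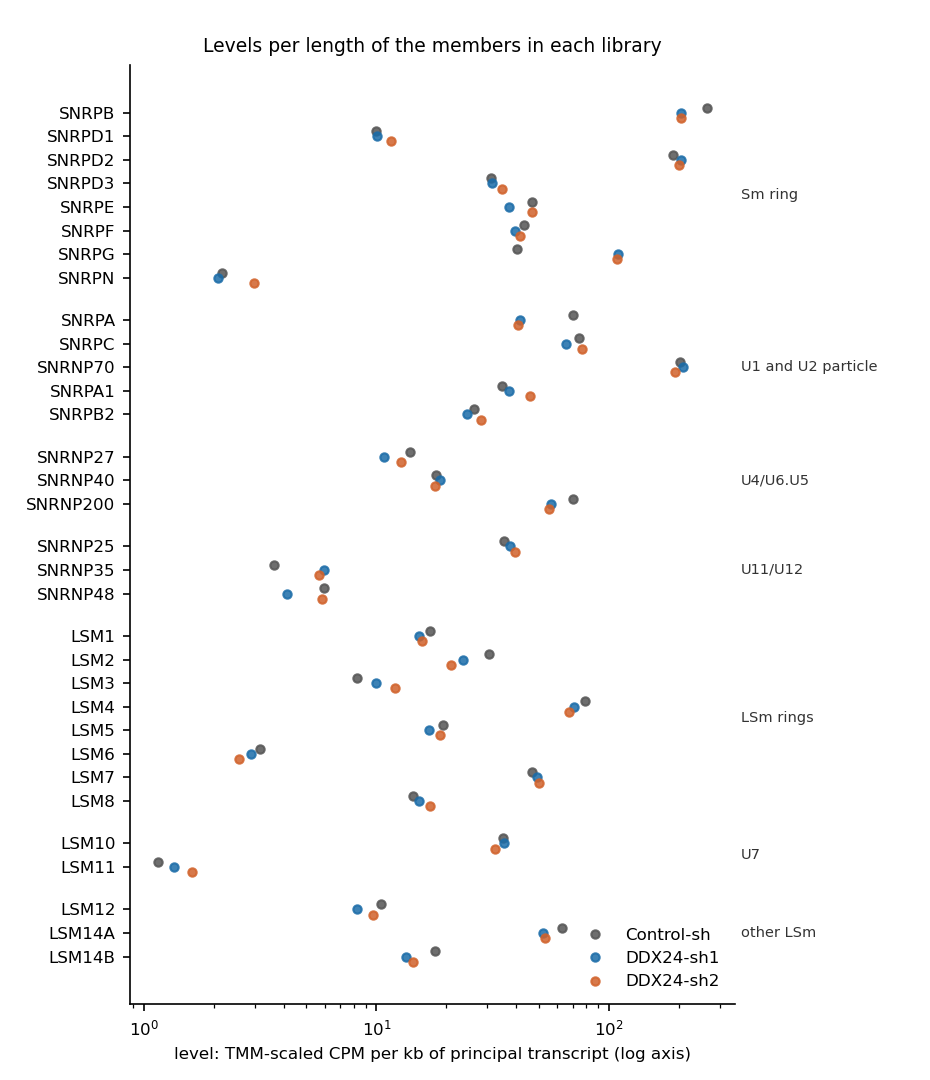
Level per length, as TMM-scaled CPM per kilobase of principal transcript (x axis, log scale), of the 32 members at or above 1 CPM on average (y axis, by role), with 1 point per library. The control point of SNRPG (40.4) lies apart from its shRNA points (109 and 108), and that of SNRPA (70.3) lies above its shRNA points (41.3 and 40.5).

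Genes that work with the members were taken as 6 lists. The SMN complex assembles Sm rings, and of its 10 genes 2 were higher and 4 lower with both counting intervals beyond 0, where 14.0% and 20.6% of all genes were. GEMIN2, which holds the Sm proteins before the ring closes, had 288, 131 and 176 counts, at -1.22 (-1.55 to -0.93) and -0.78 (-1.07 to -0.52), and was the 1 gene of this list past 1.5-fold in both libraries. GEMIN4 was the highest by the smaller of its ratios, with 1537, 1957 and 2258 counts, at 0.25 and 0.47. GEMIN6 was the other higher gene, at 0.24 and 0.54. The other lower genes were STRAP, at -0.15 and -0.08, DDX20, at -0.49 and -0.25, and GEMIN8, at -0.61 and -0.43. SMN1, the gene lost in spinal muscular atrophy, had 298, 619 and 149 counts, above the control in sh1 and below it in sh2. SMN2, its near-identical copy, had 68, 78 and 106, and reads cannot be divided surely between the copies. Their sum was 366, 697 and 255, at 0.83 (0.64 to 1.02) and -0.60 (-0.84 to -0.37). The median of the list was -0.10 in sh1 and -0.03 in sh2.

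The other lists held few genes that stood apart. Of the 8 genes of Sm methylation, cap modification and import, 0 were higher (all genes 14.0%) and 1, the cap-binding NCBP1, was lower in both libraries beyond counting error (all genes 20.6%), with 1690, 1410 and 1646 counts. WDR77, the partner of the arginine methyltransferase PRMT5, was the highest, at 0.11 and 0.24. Of the 14 other tri-snRNP proteins 1 was higher, DDX23, at 0.13 and 0.19, and 4 were lower (all genes 14.0% and 20.6%). PRPF8, the protein at the catalytic centre of the spliceosome and the partner of SNRNP200, had 12619, 10053 and 8961 counts, at -0.43 (-0.47 to -0.39) and -0.57 (-0.61 to -0.54), and SART1, SART3 and PRPF3 were the others. Of the 7 other U11/U12 genes 0 were above the control in both libraries (all genes 34.6%) and 6 were below it (all genes 40.2%), 1 of them, ZCRB1, beyond counting error (all genes 20.6%). ZMAT5 was the lowest in that list by the smaller of its ratios, at -0.31 (-0.65 to 0.02) and -0.51 (-0.87 to -0.17). PDCD7 was the highest, at -0.08 (-0.27 to 0.11) and 0.36 (0.18 to 0.54).

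In the cytoplasm, the decapping enzyme and its activators work with the ring of LSM1 to LSM7 and with LSM14A. Of these 10 genes 4 were lower beyond counting error, DDX6, PATL1, XRN1 and DCP1A, and 0 were higher, beside 20.6% and 14.0% of all genes. DCP1A, a cofactor of the decapping enzyme DCP2, had 457, 229 and 265 counts, at -1.09 (-1.33 to -0.86) and -0.86 (-1.09 to -0.65), past 1.5-fold in both. EIF4E, the cap-binding translation factor, was the highest, at 0.06 and 0.16. Of the 8 factors for histone mRNA ends 3 were lower, CPSF2, ERI1 and ZNF473, and 0 higher, again beside 20.6% and 14.0% of all genes. ZNF473, a zinc finger protein that binds LSM11 in the U7 particle, had 404, 228 and 253 counts, at -0.92 (-1.17 to -0.69) and -0.75 (-0.99 to -0.53). SLBP, which binds the histone stem-loop, was the highest, at 0.04 and 0.10. Medians of the 6 lists ran from -0.23 to -0.07 in sh1 and from -0.20 to 0.10 in sh2.

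**Figure D5:**
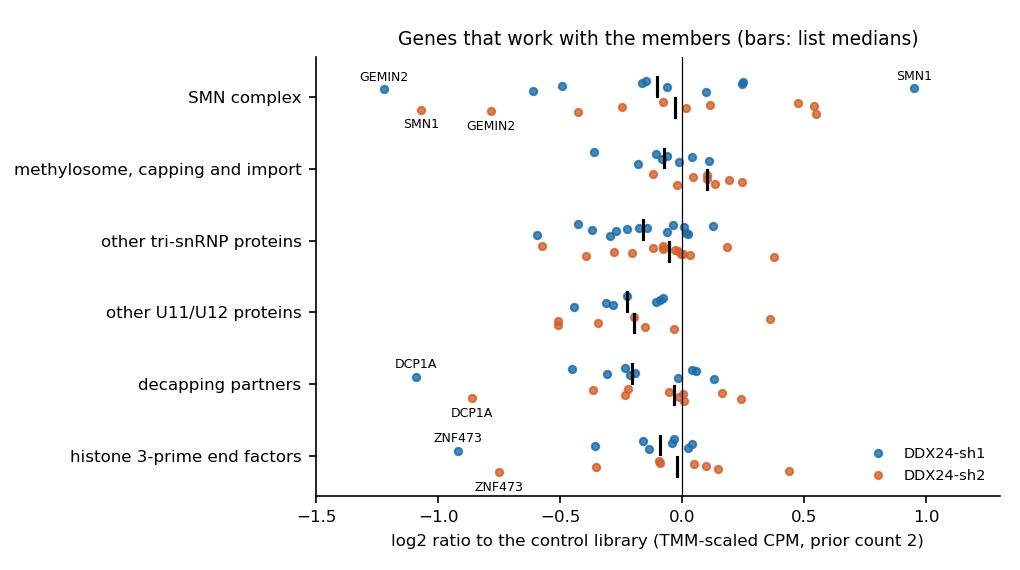
Log2 ratio to the control library (x axis) of the genes of 6 lists (y axis), with 1 point per gene and shRNA library and black bars at the list medians. GEMIN2, DCP1A and ZNF473 lie furthest below 0 in both libraries, and SMN1 lies above 0 in sh1 (0.95) and below it in sh2 (-1.07).

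The snRNAs that these proteins bind were barely counted. Over 1909 genes of the snRNA biotype the counts summed to 164 in Control-sh, 164 in sh1 and 296 in sh2, and no gene had more than 15 in a library. Whether the particles themselves differed in amount cannot be read from these libraries, which count mRNA of their proteins.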

How the data were processed

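The authors deposited, for each of the 3 libraries, counts per gene as whole numbers without normalization and FPKM per gene on the same 58735 genes. The submitters' processing notes name Bowtie2 2.0.6, TopHat2 2.0.9, Cufflinks 2.1.1 and Cuffdiff 2.1.1, with no role for each. The program that counted reads, the strandedness and the genome build are not given in the sources used here. All gene identifiers, starts and ends match GENCODE 29 on GRCh38. Counts were scaled with TMM in edgeR 4.0.16 (R 4.3.3), log2 CPM were taken with a prior count of 2, and intervals are exact 95% conditional binomial (Clopper-Pearson) intervals of the pair of counts. Without molecular identifiers, reads are not counts of independent molecules, so the intervals can be too narrow even for counting error. They cover no spread between cultures. Over the 34 members the principal transcript of GENCODE 29 gave the length. Pseudogenes were aligned to the coding sequence of their parent with Biopython 1.88. No test was run, because each condition has 1 library. Genes were called at a mean of at least 1 CPM by the sign of both ratios, by both intervals, and at 1.5-fold and 2-fold in both shRNA libraries.

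Every member is named, by role. From each partner list the genes named are the highest and the lowest by the smaller of both ratios and any gene past 1.5-fold in both. Genes with both intervals beyond 0 on the same side, the pair SMN1 and SMN2, and GEMIN5 were added after their values were seen. The members and lists were chosen with earlier results of these data known. Alternatives were DESeq2 1.42.0 size factors, total counts, a prior count of 0.5, other filters and folds, and the deposited FPKM as log2(FPKM + 0.1). The ratios, intervals and calls were tested on simulated Poisson counts, which held no spread between cultures and no reads that match more than 1 place. The simulation therefore does not show how the intervals fare with either. The sequence, pseudogene and length steps were not part of it.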

Additional observations from a re-analysis of the deposited data

Results flagged for a closer look

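At 2 genes of the SMN complex the shRNA libraries lay on opposite sides of the control with both counting intervals beyond 0, which was so for 2.60% of the 13984 genes and for 0 of the members. SMN1 was at 0.95 in sh1 and -1.07 in sh2. GEMIN5, which reads the snRNA for the SMN complex, was at -0.17 in sh1 and 0.11 in sh2. The difference between the libraries was not tested, since each has 1 replicate.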

How the results depend on the processing

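With DESeq2 size factors, total counts, a prior count of 0.5 or the FPKM with the shRNA names exchanged, all 68 member ratios stayed within their counting intervals. With the FPKM names as given, 41 did, and 4 reversed: SNRNP70 in sh2 (0.061), SNRPN in sh2 (-0.044), SNRPC in sh1 (0.058) and SNRPE in sh1 (0.014). The ratio of SNRPG with its pseudogenes summed reversed in FPKM, to -0.34 in sh1 and -0.76 in sh2 with names as given, and to -0.76 and -0.34 with names exchanged, because FPKM divides by gene length and the reads on the short pseudogenes weigh more in the sum. FPKM times length, added after seeing the data, gave 0.70 and 0.78. At 1.5-fold the members higher in both libraries were 2 and those lower 1. With the pseudogenes added to SNRPG, also chosen after seeing the data, 0 members were 2-fold higher. With total counts, 1 gene in place of 2 of the methylation, capping and import list was below the control in both. No paired analysis was possible because each condition has 1 library, and for the same reason none could be left out. Precision is limited by depth for weakly counted members such as LSM6 and SNRPN.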
